A study of Mus musculus with 18 samples.

Results

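This account describes the histone-mark peaks on mouse chromosomes 4 and 12. Every peak that the 12 deposited peak lists place on either chromosome was taken, which gave 69253 of 712322 peaks, 45305 on chromosome 4 and 23948 on chromosome 12. The other 17 autosomes held 627476 peaks and served for comparison. The series profiled embryonic stem cells (ESCs) of the C57BL/6 strain with 3 genotypes: Mettl3_Control, Mettl3_KO1 and Mettl3_KO2. Mettl3 encodes the catalytic subunit of the complex that writes N6-methyladenosine on RNA. Chromatin immunoprecipitation was done for H3K27ac and for H3K4me3, with 2 libraries per genotype and mark. Of the 18 samples, the other 6 are input chromatin and were not analysed here. Spike-in chromatin was added, and the labels do not say whether it entered the peak calls. The lists hold 29478 to 63933 autosomal peaks for H3K27ac and 64942 to 81915 for H3K4me3. All cells grew in medium with serum, LIF, CHIR99021 (a GSK3 inhibitor) and PD0325901 (a MEK inhibitor). The labels do not say how KO1 and KO2 were made, whether each is 1 clone, or whether the replicate libraries came from separate cultures, so the limma p-values below measure the spread between libraries, which may be technical.

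H3K4me3 is laid down around transcription start sites, most strongly at promoters rich in CpG dinucleotides, and broad H3K4me3 domains often cover genes that define a cell type. H3K27ac marks active promoters and active enhancers, so many of its peaks lie away from gene starts. Chromosome 4 carries Klf4, Lin28a, Foxd3 and Id3, and chromosome 12 carries Esrrb, Mycn, Id2, Dnmt3a, Dicer1 and the imprinted Dlk1-Dio3 domain with Meg3, all genes with known roles in pluripotent cells or early development. Both chromosomes also hold long arrays of duplicated genes that work in other tissues, such as the major urinary protein genes on chromosome 4 and the immunoglobulin heavy chain genes on chromosome 12.

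The promoters of 8 genes are shown because the results below turn on them, as regulators of pluripotency or development, an imprinted RNA, or genes that gained H3K4me3; some other genes had larger differences. Each run holds 300 bases, from 250 before to 50 after a RefSeq gene start on GRCm38.p6, the assembly of the lists' build mm10, and is written 5′ to 3′ on the gene's strand. Capitals mark GGGCGG (the GC box), TATAAA (the TATA box) and CCAAT (the CCAAT box) on either strand. Foxd3 (chr4:99656049-99656348, plus strand) encodes a forkhead repressor of stem cells, Klf4 (chr4:55532426-55532725, minus strand) a Krüppel-like reprogramming factor and Mycn (chr12:12941787-12942086, minus strand) a MYC-family factor, and their windows had more H3K27ac in one or both knockout lines.
Foxd3: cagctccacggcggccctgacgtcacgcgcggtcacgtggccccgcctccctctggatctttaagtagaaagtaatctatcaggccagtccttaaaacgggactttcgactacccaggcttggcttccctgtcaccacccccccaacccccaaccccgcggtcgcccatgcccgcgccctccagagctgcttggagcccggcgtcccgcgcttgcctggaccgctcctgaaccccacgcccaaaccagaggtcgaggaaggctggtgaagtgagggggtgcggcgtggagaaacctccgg
Klf4: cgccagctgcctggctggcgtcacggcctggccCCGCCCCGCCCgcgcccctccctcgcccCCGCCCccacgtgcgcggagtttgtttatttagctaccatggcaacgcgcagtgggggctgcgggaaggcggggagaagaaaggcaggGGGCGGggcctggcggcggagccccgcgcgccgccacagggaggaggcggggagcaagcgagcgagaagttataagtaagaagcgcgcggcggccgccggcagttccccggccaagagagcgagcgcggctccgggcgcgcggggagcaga
Mycn: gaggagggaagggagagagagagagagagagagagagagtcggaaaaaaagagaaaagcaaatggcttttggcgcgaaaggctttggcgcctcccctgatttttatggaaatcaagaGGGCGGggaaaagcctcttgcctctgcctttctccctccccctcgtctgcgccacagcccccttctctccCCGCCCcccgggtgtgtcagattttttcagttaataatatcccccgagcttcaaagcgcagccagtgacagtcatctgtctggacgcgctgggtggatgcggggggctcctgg
Meg3 (chr12:109540746-109541045, plus strand) is a maternally expressed noncoding RNA, Id2 (chr12:25096043-25096342, minus strand) an inhibitor of basic helix-loop-helix factors and Dicer1 (chr12:104751903-104752202, minus strand) the microRNA-processing nuclease, and their windows had less H3K4me3 in both lines.
Meg3: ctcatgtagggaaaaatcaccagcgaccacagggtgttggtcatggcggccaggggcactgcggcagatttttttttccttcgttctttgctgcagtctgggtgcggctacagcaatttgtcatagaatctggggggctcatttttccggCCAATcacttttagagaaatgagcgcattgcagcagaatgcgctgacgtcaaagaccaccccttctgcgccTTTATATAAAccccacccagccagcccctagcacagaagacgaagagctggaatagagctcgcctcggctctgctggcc
Id2: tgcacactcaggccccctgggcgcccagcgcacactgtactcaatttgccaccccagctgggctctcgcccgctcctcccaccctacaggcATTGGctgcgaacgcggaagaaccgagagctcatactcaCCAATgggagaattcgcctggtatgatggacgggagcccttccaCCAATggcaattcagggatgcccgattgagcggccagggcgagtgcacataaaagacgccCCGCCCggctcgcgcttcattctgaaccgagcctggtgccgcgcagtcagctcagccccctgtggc
Dicer1: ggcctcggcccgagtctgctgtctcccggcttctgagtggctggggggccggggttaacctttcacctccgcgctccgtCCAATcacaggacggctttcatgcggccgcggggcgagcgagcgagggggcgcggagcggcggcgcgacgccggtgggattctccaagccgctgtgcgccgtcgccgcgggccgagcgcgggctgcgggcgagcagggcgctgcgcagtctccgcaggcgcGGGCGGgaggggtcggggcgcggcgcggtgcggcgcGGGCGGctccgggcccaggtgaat
Rpl10l (chr12:66284352-66284651, minus strand), a ribosomal protein gene best known from the testis, and Acot1 (chr12:84009252-84009551, plus strand), an acyl-CoA thioesterase gene, had more H3K4me3 in both lines.
Rpl10l: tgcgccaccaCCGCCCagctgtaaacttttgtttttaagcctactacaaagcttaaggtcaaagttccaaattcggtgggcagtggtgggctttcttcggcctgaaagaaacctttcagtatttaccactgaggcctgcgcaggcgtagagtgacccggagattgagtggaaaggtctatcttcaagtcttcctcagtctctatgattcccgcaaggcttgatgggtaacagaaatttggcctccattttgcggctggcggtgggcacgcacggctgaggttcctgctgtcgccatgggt
Acot1: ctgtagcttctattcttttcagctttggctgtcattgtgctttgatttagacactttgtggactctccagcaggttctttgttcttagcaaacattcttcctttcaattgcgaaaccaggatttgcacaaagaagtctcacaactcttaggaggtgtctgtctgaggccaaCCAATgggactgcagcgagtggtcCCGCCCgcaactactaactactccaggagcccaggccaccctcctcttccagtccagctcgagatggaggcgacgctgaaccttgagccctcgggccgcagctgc
The 300 bases held 25 CpG dinucleotides in Foxd3, 40 in Klf4, 14 in Mycn, 13 in Meg3, 21 in Id2, 49 in Dicer1, 13 in Rpl10l and 9 in Acot1, against a median of 7 over all 32851 RefSeq promoters of the table. The GC box was found in 35.7% of all promoters of this length, and among the 8 shown it was found 4 times in Klf4, 2 times each in Mycn and Dicer1, and 1 time each in Id2, Rpl10l and Acot1. The TATA box was found in 13.6% of all promoters and, of the 8, in Meg3 alone, where 2 matches on opposite strands overlap. The CCAAT box was found in 37.4% of all promoters and, of the 8, in Meg3, Id2, Dicer1 and Acot1. Over all promoters of chromosomes 4 and 12 these shares were 38.8%, 12.3% and 37.7%.

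Chromosome 4 is richer in genes and in peaks than chromosome 12. It has 1328 protein-coding genes, or 8.50 per Mb up to its last peak, and ranked 7 of 19 autosomes in gene density, whereas chromosome 12 has 679, or 5.66 per Mb, and ranked 18. In Control cells chromosome 4 carried 13 H3K27ac and 37.0 H3K4me3 peaks per Mb, and chromosome 12 carried 8.89 and 24.5, the lowest density of any autosome for both marks. Per protein-coding gene they were nearly equal, with 4.36 H3K4me3 peaks on chromosome 4 and 4.33 on chromosome 12. H3K4me3 was present in both Control libraries at 65.3% of the 1067 chromosome 4 genes and 73.9% of the 591 chromosome 12 genes whose start is in the promoter table, against 62.2% of 14802 such genes on the other autosomes. Genes with H3K4me3 in both Control libraries had a median of 22 promoter CpG dinucleotides on chromosome 4 and 24 on chromosome 12, and the remaining genes had 4 on each.

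The strongest Control peaks lay at genes of stem cells and of basic cell growth. On chromosome 12 the widest H3K4me3 peak, 29658 bp (chr12:86466475-86496132, fold 26.3 over local background in the authors' list), lay inside Esrrb, which encodes an orphan nuclear receptor of the naive pluripotency network. The widest H3K27ac peak of that chromosome, 5039 bp (chr12:86501983-86507021), and the one with the highest fold, 23.8 (chr12:86500227-86501528), also lay inside Esrrb. On chromosome 4 the highest H3K4me3 fold, 37.8, was at the ribosomal protein gene Rpl11 (chr4:136049517-136053384). These are folds as the authors gave them, each from 1 list. The Esrrb H3K4me3 domain was covered at 97.2% and 95.6% in the KO1 libraries and at 98.4% and 94.0% in KO2.

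The chromosomes were selected on their share of the peaks in these lists, which differed between the genotypes, so their shares are given as a description and no test was made on them. For H3K27ac, chromosome 4 held 1957 and 2091 peaks for Control, 2180 and 2133 for KO1 and 4032 and 3858 for KO2. These were 6.64% and 6.45% of the autosomal peaks for Control, 5.54% and 5.58% for KO1 and 6.31% and 6.43% for KO2. Both KO1 libraries lay below all other libraries, and both KO2 libraries lay between them and the Control libraries. The widest 95% Wilson interval of these shares, which covers counting error only, ran from 6.36% to 6.93% in the first Control library.

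Chromosome 12 held 1026 and 1107 H3K27ac peaks for Control, 1236 and 1157 for KO1 and 2241 and 2126 for KO2. Its share was 3.48% and 3.41% for Control, 3.14% and 3.03% for KO1 and 3.51% and 3.55% for KO2. The KO1 libraries were again the lowest, and the KO2 libraries lay just above Control. In numbers, H3K27ac peaks in KO1 were 1.07 times the Control mean on chromosome 4 and 1.12 times on chromosome 12, against 1.27 times on the other 17 autosomes, and in KO2 they were 1.95, 2.05 and 2.00 times.

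For H3K4me3, chromosome 4 held 5834 and 5741 peaks for Control, 4255 and 4297 for KO1 and 4636 and 4291 for KO2, or 7.12% and 7.18%, 6.23% and 6.36%, and 6.57% and 6.61% of the autosomal peaks. Chromosome 12 held 3011 and 2868 peaks for Control, 2202 and 2240 for KO1 and 2454 and 2280 for KO2, or 3.68% and 3.59%, 3.22% and 3.31%, and 3.48% and 3.51%. For this mark both knockout lines lay below both Control libraries on both chromosomes, with KO1 the lower of them. H3K4me3 peak number in KO1 was 0.739 times Control on chromosome 4 and 0.756 times on chromosome 12, against 0.851 on the other autosomes, and in KO2 it was 0.771, 0.805 and 0.844 times. By covered length in Mb, not scaled to the length of each list, the KO1 and KO2 libraries overlapped: H3K4me3 peaks covered 4.03 and 3.93 Mb of chromosome 4 for Control, 2.73 and 2.71 Mb for KO1 and 3.10 and 2.57 Mb for KO2. As a share of the autosomal covered length, KO1 was again the lower. The chromosome 4 means were 7.09% in Control, 6.05% in KO1 and 6.32% in KO2 (standard deviations 0.03, 0.09 and 0.01).

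**Figure D1:**
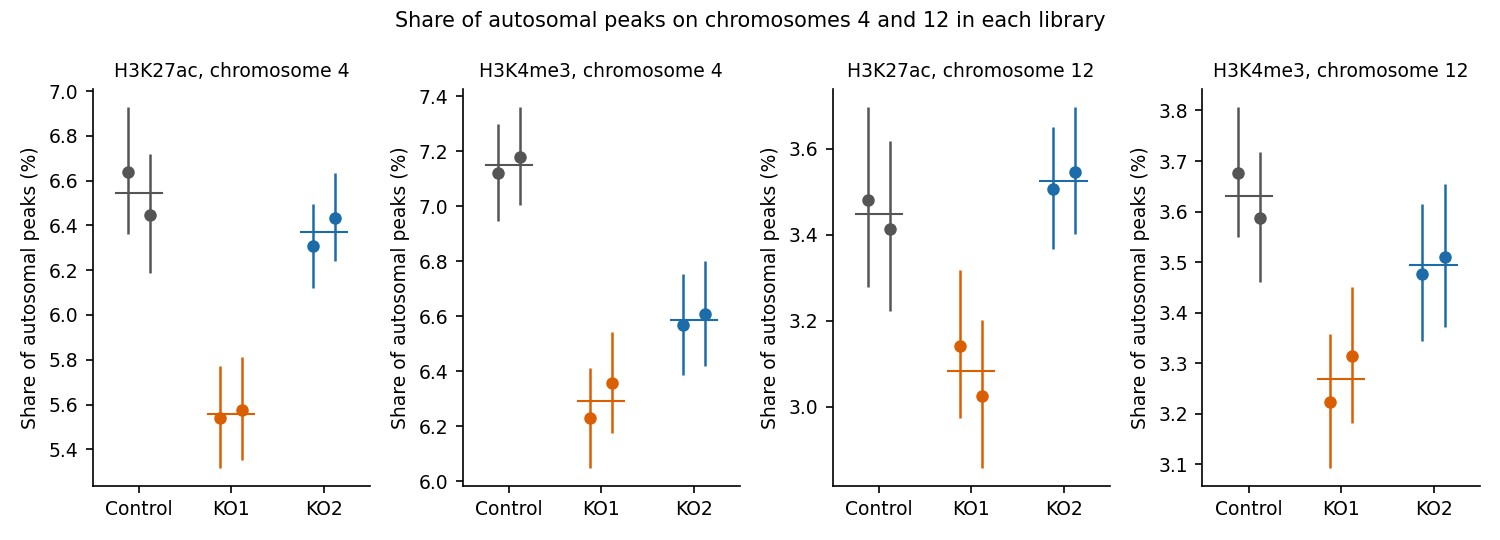
Share of autosomal peaks (percent, y axis; the axes do not start at 0) on each chromosome, for both marks. Points are libraries with 95% Wilson intervals and short lines are genotype means. Both KO1 libraries sit below both Control libraries in every panel, and for H3K27ac on chromosome 12 the KO2 libraries sit just above Control.

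Set beside the other autosomes, chromosomes 4 and 12 ranked 2 and 3 from the lowest in KO1 for both marks. The log2 ratio of the mean H3K27ac share in KO1 to that in Control was -0.24 on chromosome 4 and -0.16 on chromosome 12. Chromosome 8 was lower, at -0.29, and the next autosome above them was chromosome 6, at -0.14. For H3K4me3 the KO1 ratios were -0.18 on chromosome 4 and -0.15 on chromosome 12, with chromosome 8 below them at -0.22 and chromosome 10 next above at -0.02. In KO2 the ratios were -0.04 and 0.03 for H3K27ac, ranks 9 and 11 of 19, and -0.12 and -0.06 for H3K4me3, ranks 5 and 7. KO1 and KO2 were compared with the same Control libraries, so their ratios are not independent.

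**Figure D2:**
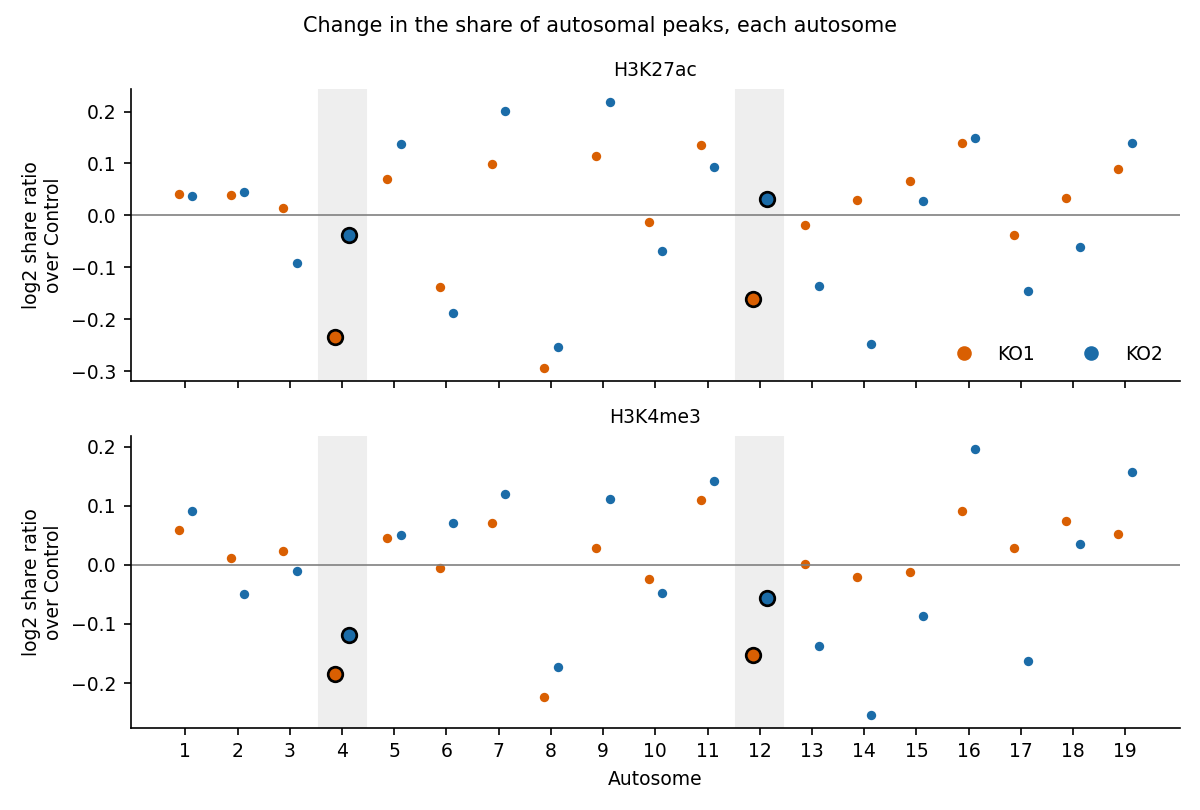
log2 ratio of the mean share of autosomal peaks in each knockout line to that in Control (y axis) for autosomes 1 to 19 (x axis). Chromosomes 4 and 12 are shaded and outlined. In KO1 they lie at -0.24 and -0.16 for H3K27ac and at -0.18 and -0.15 for H3K4me3, above chromosome 8 only.

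A second quantity moved with the KO1 shares. From the fold and p in the authors' lists the local background behind every peak was recovered, and its mean over a chromosome was set against its mean over the remaining autosomes, as a ratio. For H3K27ac this relative background on chromosome 4 was 0.947 and 0.931 for Control, 0.856 and 0.846 for KO1 and 0.899 and 0.904 for KO2. On chromosome 12 it was 0.941 and 0.924 for Control, 0.847 and 0.847 for KO1 and 0.918 and 0.925 for KO2. In all 4 KO1 lists the lowest 2 of the 19 autosomes were chromosomes 4 and 12. The H3K4me3 lists gave 0.867 and 0.870 on chromosome 4 and 0.853 and 0.836 on chromosome 12 in KO1, against 0.968 and 0.967, and 0.949 and 0.948, in Control. In KO2 they gave 0.904 and 0.899 on chromosome 4 and 0.920 and 0.925 on chromosome 12. The lists of the 2 marks with the same genotype and replicate number gave the same background, within 1%, at 87.7% to 90.7% of their summits shared within 5 bp, against 0.262% to 3.06% for other pairs of lists, so the marks are not independent in this respect. The part of this background in the peak shares was not tested.

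**Figure D3:**
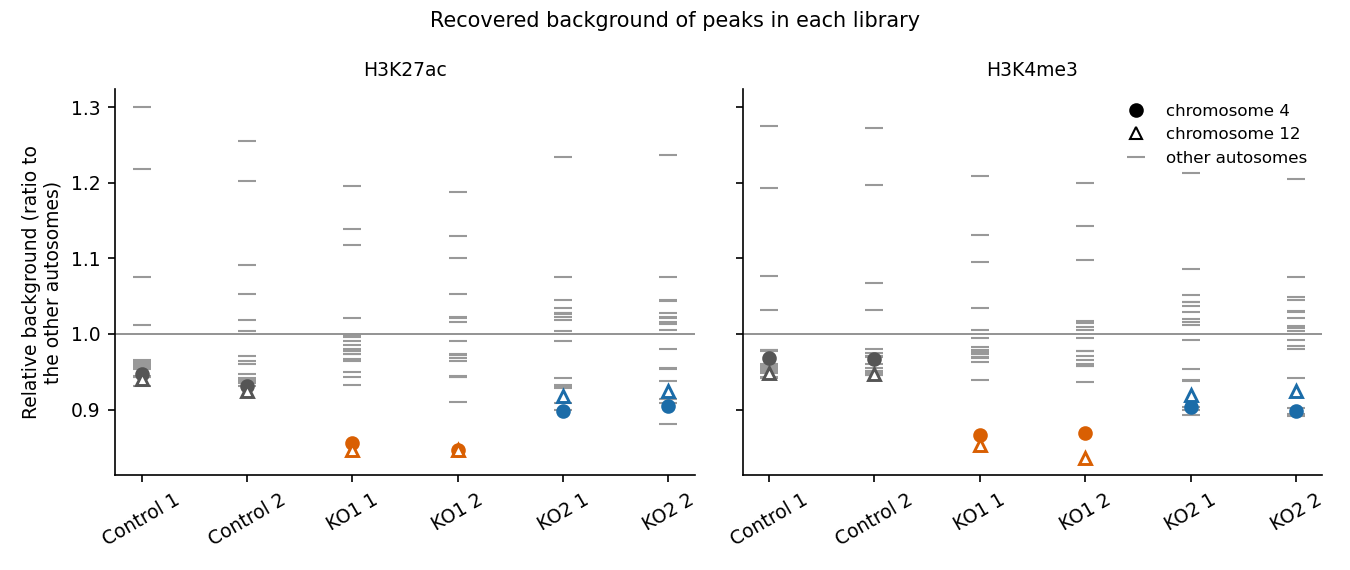
Relative background of the peaks of each chromosome (ratio to the other autosomes, y axis) in each library (x axis). Filled circles are chromosome 4, open triangles chromosome 12 and grey dashes the other autosomes. In KO1 both lie between 0.836 and 0.870, below every other autosome.

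Along the chromosomes the lower KO1 share was spread over most windows. In 10-Mb windows with a mean of at least 10 peaks, the KO1 share of H3K27ac peaks was below Control in 14 of 16 windows of chromosome 4 and 11 of 12 of chromosome 12, against 99 of 226 on the other autosomes. H3K4me3 in KO1 was below Control in 14 of 16, 9 of 12 and 95 of 226 windows. H3K4me3 in KO2 was below Control in 13 of 16, 8 of 12 and 118 of 226. In KO2 the H3K27ac share was below Control in 8 of 16 and 6 of 12 windows, against 132 of 226 on the other autosomes. The ratios had a standard deviation over windows of 0.41 on chromosome 4 and 0.40 on chromosome 12 in place of 0.19 and 0.11 in KO1. On the other autosomes this standard deviation was also larger in KO2, at 0.33 against 0.18 in KO1. On chromosome 12 in KO2 the window from 40 to 50 Mb was at -0.83 (log2 ratio of shares), and the windows of the last 30 Mb were at 0.43, 0.49 and 0.36. On chromosome 4 in KO2 the window from 60 to 70 Mb was at 0.64 and the next one at -1.12, both with few peaks, a Control mean of 21.0 and 31.5. The median H3K27ac peak position on chromosome 12 was 75.9 and 75.7 Mb for Control, 76.0 and 73.1 Mb for KO1 and 79.996 and 79.2 Mb for KO2, so both KO2 libraries and the first KO1 library lay distal to both Control libraries, KO1 by less.

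**Figure D4:**
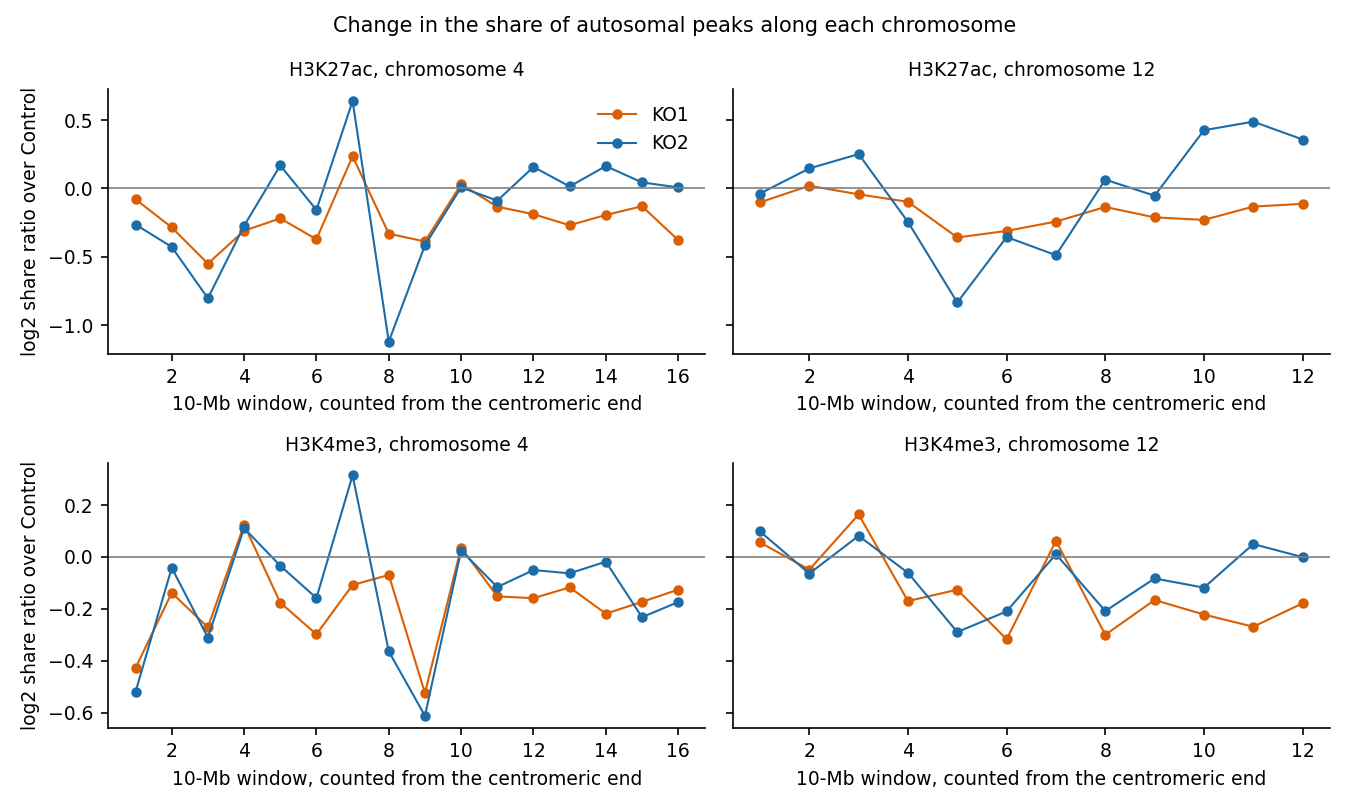
log2 ratio of the share of autosomal peaks over Control (y axis) in 10-Mb windows counted from the centromeric end (x axis). KO1 lies below 0 in most windows of both chromosomes, whereas H3K27ac in KO2 lies above 0 in the last 3 windows of chromosome 12 and at -1.12 in window 8 of chromosome 4.

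The lower H3K4me3 peak number of both knockout lines was lower still away from gene starts. In KO1, H3K4me3 peaks more than 2500 bp from any protein-coding gene start of the promoter table numbered 0.685 times Control on chromosome 4 and 0.693 times on chromosome 12, against 0.821 on the other autosomes. Peaks nearer to a start numbered 0.921, 0.932 and 0.945 times. In KO2 the H3K4me3 peaks away from starts were 0.714, 0.753 and 0.807 times Control, and those near starts 0.963, 0.953 and 0.958 times. For H3K27ac in KO1 the peaks away from starts were 1.04, 1.14 and 1.31 times Control, and those near starts 1.13, 1.08 and 1.2 times. Of regions with a Control H3K4me3 peak in both libraries, 21.9% on chromosome 4 and 21.7% on chromosome 12 met no KO1 peak, against 15.0% on the other autosomes. Of KO1 H3K4me3 regions, 2.88% and 3.46% met no Control peak, against 5.83%. Control H3K4me3 regions without a KO2 peak were 22.2%, 20.9% and 18.8%, and KO2 regions without a Control peak were 7.28%, 9.22% and 9.92%. For H3K27ac the Control regions without a KO1 peak were 6.20%, 5.30% and 3.38%, and the KO1 regions without a Control peak were 8.91%, 11.6% and 15.9%.

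Gene arrays were at opposite ends of the range. The 28 genes of the serpin array on chromosome 12 held no H3K27ac peak in any library and at most 1 H3K4me3 peak. The immunoglobulin heavy chain array, 2.75 Mb with 211 genes and gene segments, held 0 to 3 H3K27ac and 0 or 1 H3K4me3 peaks. The type I interferon array of chromosome 4 held 7 H3K4me3 peaks in each Control library, 1 and 2 in KO1, and 2 and 2 in KO2, and 1 H3K27ac peak in every library. The KRAB zinc finger array of distal chromosome 4, whose products silence retrotransposons, held 182 and 171 H3K4me3 peaks for Control, 149 and 167 for KO1 and 109 and 97 for KO2, and 33 and 40 H3K27ac peaks for Control, 36 and 42 for KO1 and 55 and 60 for KO2. In both KO2 libraries H3K4me3 peaks of this array were thus fewer than in any other library. Its H3K27ac peaks were more, as they were on the other autosomes, where KO2 held 2.00 times the Control number. The arrays hold near-identical copies between which reads could be split, so these counts are uncertain.

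Finer positions were compared in 2-Mb bins. The quantity was the part of a library's autosomal covered length that lies in a bin, in ppm, as log2(ppm + 20), fitted with limma over all autosomal bins. In KO1, H3K27ac bins were lower in 35 of 77 on chromosome 4 and 17 of 58 on chromosome 12 (percent called lower over all 1201 autosomal bins, 19.7), and higher in 1 and 3 (over all bins, 20.3). In KO2 they were lower in 35 and 14 (over all bins, 36.1) and higher in 17 and 17 (over all bins, 26.3). H3K4me3 bins in KO1 were lower in 41 of 78 and 22 of 59 (over all 1209 bins, 20.5) and higher in 8 and 4 (over all bins, 29.1). In KO2 they were lower in 35 and 13 (28.5) and higher in 12 and 11 (30.4). Between the lines, 51 H3K27ac bins were higher (over all bins, 20.5) and 20 lower (32.1) in KO2 than in KO1, and 41 H3K4me3 bins were higher (21.3) and 15 lower (26). These counts come from the same contrasts as the choice of the chromosomes and are given as a description. The longest run of neighbouring lower bins was 15 in KO1 for H3K4me3 on chromosome 4, from 116 to 146 Mb.

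The bins named here are among the lowest or highest of their chromosome and line, on chromosomes selected on such shares, so their values are a description without a test. Several of the lowest held few genes, although the bin of chromosome 4 from 52 to 54 Mb, at -1.08 for H3K27ac in KO1, held 14. The bin of chromosome 4 from 66 to 68 Mb, with Astn2 and Tlr4 (a receptor for bacterial lipopolysaccharide), had 134 and 110 ppm of the H3K27ac length for Control, 21.0 and 41.6 for KO1 and 0 and 7.0 for KO2. Its difference from Control on this log2 scale was -1.49 in KO1 and -2.60 in KO2. The bin from 22 to 24 Mb, which holds the neural factor gene Pou3f2 and Fbxl4, had 660 and 573 ppm for Control, 371 and 318 for KO1 and 182 and 178 for KO2, a difference of -1.67 in KO2. On chromosome 12 the bin from 6 to 8 Mb, which holds Apob, the gene of the main apolipoprotein of LDL, had 126 and 142 ppm for Control, 47.6 and 27.4 for KO1 and 21.8 and 29.3 for KO2.

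A gene-dense bin of chromosome 12 was also among the lowest in KO1 for both marks. The bin from 102 to 104 Mb, with 34 protein-coding genes including Itpk1, Ubr7 and Btbd7, had 1307 and 1354 ppm of the H3K4me3 length for Control, 726 and 730 for KO1 and 1066 and 1052 for KO2. Its difference in KO1 was -0.85. Its H3K27ac share was 810 and 717 ppm for Control, 412 and 353 for KO1 and 848 and 879 for KO2, a difference of -0.96 in KO1. Both KO2 libraries lay above both KO1 libraries, by 0.53 for H3K4me3 and by 1.14 for H3K27ac in the means of the log2 values.

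Other bins were among the highest. On chromosome 4 the H3K4me3 share of the bin from 98 to 100 Mb, which holds Foxd3, Usp1 and L1td1, was 928 and 878 ppm for Control, 1085 and 1159 for KO1 and 1253 and 1341 for KO2, a difference of 0.51 in KO2. The H3K27ac share of the bin from 62 to 64 Mb, with Alad, Prpf4 and Pole3, was 382 and 420 ppm for Control, 428 and 425 for KO1 and 874 and 814 for KO2, a difference of 1.04 in KO2. On chromosome 12 the H3K4me3 share of the bin from 66 to 68 Mb, with Rpl10l and Mdga2, was 31.4 and 36.3 ppm for Control, 80.5 and 86.3 for KO1 and 68.2 and 84.5 for KO2, a difference of 0.94 in KO1 and 0.84 in KO2.

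Promoters were then compared gene by gene, by the percent of a window reaching 2 kb to either side that peaks cover. The window is centred on the start in the RefSeq promoter table, or on the start with the most H3K4me3 where a gene has several. Where the table has none, it is the window inside the gene with the most H3K4me3, as for Zfp462, Car8, Gnl2 and Zmym1. Differences are in percentage points, from limma over all genes with a mean coverage of at least 5%. For H3K27ac, the mean of KO1 and KO2 was higher than Control at 321 of 567 genes tested on chromosome 4 and 204 of 331 on chromosome 12 (percent called higher over all 9462 genes, 66.6). None was lower in limma, the one tool run, with 574 of the 898 genes at an unadjusted p under 0.05 in either direction (percent called lower over all genes, 0.0845). Taken alone, KO2, whose H3K27ac lists hold more peaks on all autosomes, was higher at 772 of the 898 genes (over all genes, 88.2%) and KO1 at 2 (over all genes, 0.0845%). Against KO1, KO2 was higher at 715 (over all genes, 76.1%). KO2 was lower at none of them, against Control (over all genes, 0.074%, with 781 at an unadjusted p under 0.05 in limma in either direction) or against KO1 (0.074%, with 741). After quantile normalization, which gives all libraries the same distribution of coverage, 9 were higher and 7 lower, and the median difference over all genes moved from 10.5 to -0.58 points. Without the first Control library 213 of the genes tested were higher, and without the second 259. Shares over all genes under these alternatives are not given here, so the counts show only how the calls moved.

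Foxd3 gained H3K27ac in both lines, and most other pluripotency genes tested were higher in the mean of both lines, as were most genes. Of the 11 list members on the 2 chromosomes, 9 were tested for H3K27ac and 8 passed, all higher: Foxd3, Klf4, Id3, Lin28a, Mycl, Zfp462, Mycn and Tcl1 (percent called higher over all genes, 66.6), with a median difference over the 9 of 20.1 points, against 10.5 over all genes. Lin28a and Mycl reached the 5% filter only through KO2, where they are high, and were called in 3 of 9 and 4 of 10 alternatives, so the count and the median of those tested support nothing about the list. Foxd3 (window chr4:99654299-99658299) was covered by H3K27ac at 9.95% and 11.9% for Control, 57.9% and 53.4% for KO1 and 57.3% and 63.2% for KO2, a difference of 47.0 points (SE 3.64, adjusted p = 0.0011). All 4 knockout libraries lay above both Control libraries. The Foxd3 gain was also called in KO1 alone (adjusted p = 0.025) and under all 11 alternatives, including quantile normalization (34.6 points, adjusted p = 0.014; range over the alternatives 0.0018 to 0.025).

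Klf4 and Tcl1 separated the lines. Klf4 (window chr4:55530475-55534475) was covered by H3K27ac at 42.9% and 40.6% for Control, 29.2% and 34.8% for KO1 and 90.2% and 93.1% for KO2, and KO2 exceeded KO1 by 59.7 points (adjusted p = 0.00020). Tcl1, which encodes a coactivator of AKT, was at 13.4% and 7.05% for Control, 7.25% and 5.17% for KO1 and 58.6% and 57.9% for KO2. At both genes the KO2 libraries lay far above all others and the KO1 difference from Control was not called (adjusted p = 0.29 and 0.64). Lin28a, the let-7 antagonist, was at 4.0% and 3.75% in Control, 0% in both KO1 libraries, and 17.3% and 19.9% in KO2.

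Mycn, Id3 and Zfp462 had intermediate values in KO1. Mycn (window chr12:12939836-12943836) was covered by H3K27ac at 36.5% and 32.9% for Control, 51.0% and 59.8% for KO1 and 73.3% and 86.8% for KO2, a difference of 33.0 points (SE 4.86, adjusted p = 0.0022). The genotypes did not overlap, and the KO1 difference alone was not called (adjusted p = 0.155). Id3, an inhibitor of differentiation downstream of BMP, was at 20.6% and 12.8% for Control, 30.3% and 32.3% for KO1 and 33.5% and 39.8% for KO2. Mycl and Zfp462, the latter a zinc finger protein of heterochromatin in ESCs, passed as well. After quantile normalization the differences at Klf4, Mycn, Id3, Tcl1 and Zfp462 were positive and not called, and that at Lin28a was -2.96 points.

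H3K4me3 was called at few of the same pluripotency genes. All 11 members were tested and 1 passed, Id2, which was lower (percent called lower over all genes, 5.46). The median difference was -1.81 points against -2.27 over all genes. Id2 (window chr12:25094092-25098092) was covered at 45.0% and 46.4% for Control, 22.9% and 27.3% for KO1 and 31.4% and 26.7% for KO2, a fall by 18.6 points (SE 2.88, adjusted p = 0.017). All 4 knockout libraries lay below both Control libraries. At the Esrrb start of the table (window chr12:86419644-86423644), which lies before the broad domain named above, H3K4me3 was at 22.4% and 21.7% for Control, 0% and 6.45% for KO1 and 26.7% and 27.8% for KO2. Esrrb fell in KO1 (adjusted p = 0.034) and differed between the lines by 24.0 points (adjusted p = 0.020), and no library had H3K27ac in this window.

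The imprinted Dlk1-Dio3 domain of chromosome 12 lost H3K4me3 at Meg3. The Meg3 window (chr12:109538996-109542996) was covered at 66.8% and 59.3% for Control, 24.4% and 17.4% for KO1 and 14.3% and 18.3% for KO2, a fall by 44.4 points (SE 3.48, adjusted p = 0.0051). The highest knockout library, at 24.4%, lay far below the lowest Control library. Meg3 was called in each line alone (adjusted p = 0.013 in KO1 and 0.0056 in KO2) and in 9 of 11 alternatives, with adjusted p from 0.0029 to 0.10. Dlk1, the paternally expressed Notch-pathway ligand, was at 15.9% and 12% for Control, 8.0% and 3.75% for KO1 and 7.52% and 9.37% for KO2, which was not called (adjusted p = 0.13). Of the 8 genes of the domain in the list 5 were tested for H3K4me3 and 1, Meg3, passed (percent called lower over all genes, 5.46). For H3K27ac 1 gene, Wdr25, was tested and was higher by 12.3 points (limma adjusted p = 0.0092). The percent called higher over all genes was 66.6.

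Few regulators of lineages had enough H3K27ac to be tested. Of 41 members 10 were tested and 6 were higher, among them Dab1, Foxj3, Jun, Ski and Sox11 (percent called higher over all genes, 66.6), with a median over the 10 of 13 points. Sox11, a neural transcription factor, was at 11.8% and 7.70% for Control, 0% and 8.40% for KO1 and 69.8% and 66.9% for KO2, so KO2 alone lay above Control. For H3K4me3, 35 were tested and 1, Hes5, was lower (percent called lower over all genes, 5.46). Hes5, an effector of Notch signalling, was at 31% and 29.7% for Control, 12.9% and 15.0% for KO1 and 20.3% and 13.3% for KO2 (limma adjusted p = 0.025).

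Regulators of chromatin and RNA included the de novo DNA methyltransferase Dnmt3a and the microRNA nuclease Dicer1. For H3K27ac 15 of 27 members tested were higher, against 66.6% of all genes, with a median of 10.9 points: Asxl2, Baz1a, Cbll1, Dicer1, Dnmt3a, Hdac1, Kdm1a, Max, Phf13, Srsf10, Srsf5, Ythdf2, Yy1, Zbtb17 and Zbtb8a. Dnmt3a was at 4.95% and 5.65% for Control, 22.3% and 8.70% for KO1 and 46.4% and 51.0% for KO2 (26.8 points, adjusted p = 0.0024). Ythdf2, a reader of N6-methyladenosine, was at 26.5% and 22.9%, 32.0% and 26.4%, and 39.8% and 43.2%. For H3K4me3 2 of 30 were lower, Dicer1 and Smc6 (percent called lower over all genes, 5.46), with a list median of -2.99 points. Dicer1 H3K4me3 was at 69.8% and 70.8% for Control, 49.5% and 47.4% for KO1 and 50.2% and 49.0% for KO2, a fall by 21.3 points (SE 3.07, adjusted p = 0.015). Both lines fell at Dicer1 to nearly the same level, and in a window of 1 kb to either side the difference was -1.37 points (adjusted p = 0.95).

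Genes of growth and metabolism, a mixed list, were higher for H3K27ac at 23 of 35 members tested, near the 66.6% of all genes, with a median of 10.5 points, equal to that of all genes: Cdc20, Ckb, Eno1, Errfi1, Hif1a, Hsp90aa1, Mthfd1, Mutyh, Ndufb1, Nfkbia, Park7, Pgd, Plk3, Prdx1, Psma3, Psma6, Rad51b, Rad54l, Rrm2, Sdhb, Slc2a1, Txndc12 and Uqcrh. After quantile normalization the differences at Cdc20, Eno1, Errfi1, Hif1a, Mthfd1, Mutyh, Ndufb1, Park7, Psma3, Psma6 and Sdhb were below 0. Ckb, which encodes brain creatine kinase, had no H3K27ac in either Control library, 12.9% and 14.5% in KO1, and 58.3% and 58.1% in KO2, and was called under all 11 alternatives. H3K4me3 was lower at 4 of 43 members, Ndufb1, Rad54l, Sdhb and Stmn1 (percent called lower over all genes, 5.46), with a median of -5.07 points. Sdhb, a subunit of succinate dehydrogenase, was at 51.6% and 55.7% for Control, 39.2% and 35.0% for KO1 and 22.6% and 29.9% for KO2 (adjusted p = 0.017). Of 8 ribosomal protein genes 5 were higher for H3K27ac, among them Rpl22, Rpl36al, Rps29 and Rps7 (percent called higher over all genes, 66.6). None of 8 passed for H3K4me3 in limma, the one tool run (over all genes, 5.46 lower and 0.865 higher). All these lists were drawn up with results of these data known, so their counts are no independent evidence.

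The largest H3K27ac gains on chromosome 4 besides Foxd3 were at Nfyc, a subunit of the CCAAT-binding factor NF-Y, with 48.6 points, Fabp3, a fatty acid carrier, with 46.4 points, and Rusc2, with 44.4 points. Fabp3 was at 6.17% and 5.95% for Control, 34.9% and 41.9% for KO1 and 65.8% and 67.1% for KO2, and like Foxd3 was called in KO1 alone (adjusted p = 0.047). These were the only 2 genes of chromosomes 4 and 12 called for H3K27ac in KO1. On chromosome 12 the largest gains were at Ppp2r5c, a regulatory subunit of phosphatase PP2A, with 39.95 points, Ckb with 36.0, Mycn with 33.0 and Actn1, an actin crosslinker, with 32.7. Ppp2r5c H3K4me3 parted the lines: it was at 94.5% and 97.6% for Control, 63.9% and 67.4% for KO1 and 94.4% and 93.1% for KO2.

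H3K4me3 coverage was lower at 88 of 847 genes tested on chromosome 4 and 35 of 499 on chromosome 12 (percent called lower over all 13519 genes, 5.46), and higher at 1 and 3 (over all genes, 0.865). The median difference was -4.19 points on chromosome 4 and -3.61 on chromosome 12, against -2.27 over all genes. The chromosomes were selected on their share of these same peaks. Gene counts and medians of the 2 chromosomes are therefore a description for either mark, and no independent support for a difference from other autosomes. KO1 alone was lower at 51 of the 1346 genes (over all genes, 1.62) and higher at 2 (0.185), and KO2 alone was lower at 102 (5.83) and higher at 8 (1.37). KO2 exceeded KO1 at 11 (0.496) and was below it at 3 (0.185). The counts lower in the mean of both lines moved with the libraries used: without the first Control library no gene of the 1338 tested was called, with 285 at an unadjusted p under 0.05, and without the second Control library 2 were lower. Leaving out 1 KO1 library left 11 and 18 lower, and leaving out 1 KO2 library left 84 and 27. In a window of 1 kb to either side none was called, with 220 of 1320 at an unadjusted p under 0.05, and after quantile normalization 62 were lower and 8 higher. For these alternatives too, shares over all genes are not given here.

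Among the largest H3K4me3 falls on chromosome 4 were those at Gnl2, a nucleolar GTPase, by 40.7 points, Gm12657 by 39.4 and Zmym1 by 37.7. Gnl2 was at 74.7% and 76.6% for Control, 43.3% and 38.4% for KO1 and 25.5% and 32.5% for KO2, with every knockout library below Control. On chromosome 12 they were at Meg3, at Wdr89 by 31 points, at Plekhg3 by 29.1 and at Arl4a by 28.1. Wdr89 was at 84.4% and 86.4% for Control, 58.6% and 59.2% for KO1 and 50.5% and 49.2% for KO2.

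The 4 genes called higher for H3K4me3 were Car8, Acot1, Rpl10l and Syne3. Rpl10l (window chr12:66282401-66286401) was at 14.6% and 19.6% for Control, 53.9% and 52.1% for KO1 and 40.3% and 33.6% for KO2, a rise of 27.9 points (SE 3.17, adjusted p = 0.0094). Acot1 (window chr12:84007502-84011502) was at 7.70% and 9.40% for Control, 31.6% and 23.9% for KO1 and 45.2% and 41.2% for KO2, a rise of 27 points (SE 3.01, adjusted p = 0.0089). Both lines lay above Control at both genes. Acot1 H3K27ac was at 0% in the Control and KO1 libraries and at 30.9% and 31.6% in KO2. Acot1 lies in an array of 6 thioesterase genes and Rpl10l is a copy of an X-linked gene, so reads could be split among copies and their values are uncertain. Car8, an inactive carbonic anhydrase, rose by 27.2 points and was called in 1 of 11 alternatives. Syne3, a nuclear envelope protein, was at 0% outside KO2 and at 16.7% and 16.8% there. It reached the 5% filter only through KO2, and 1 of 9 alternatives called it, so its call supports nothing.

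**Figure D5:**
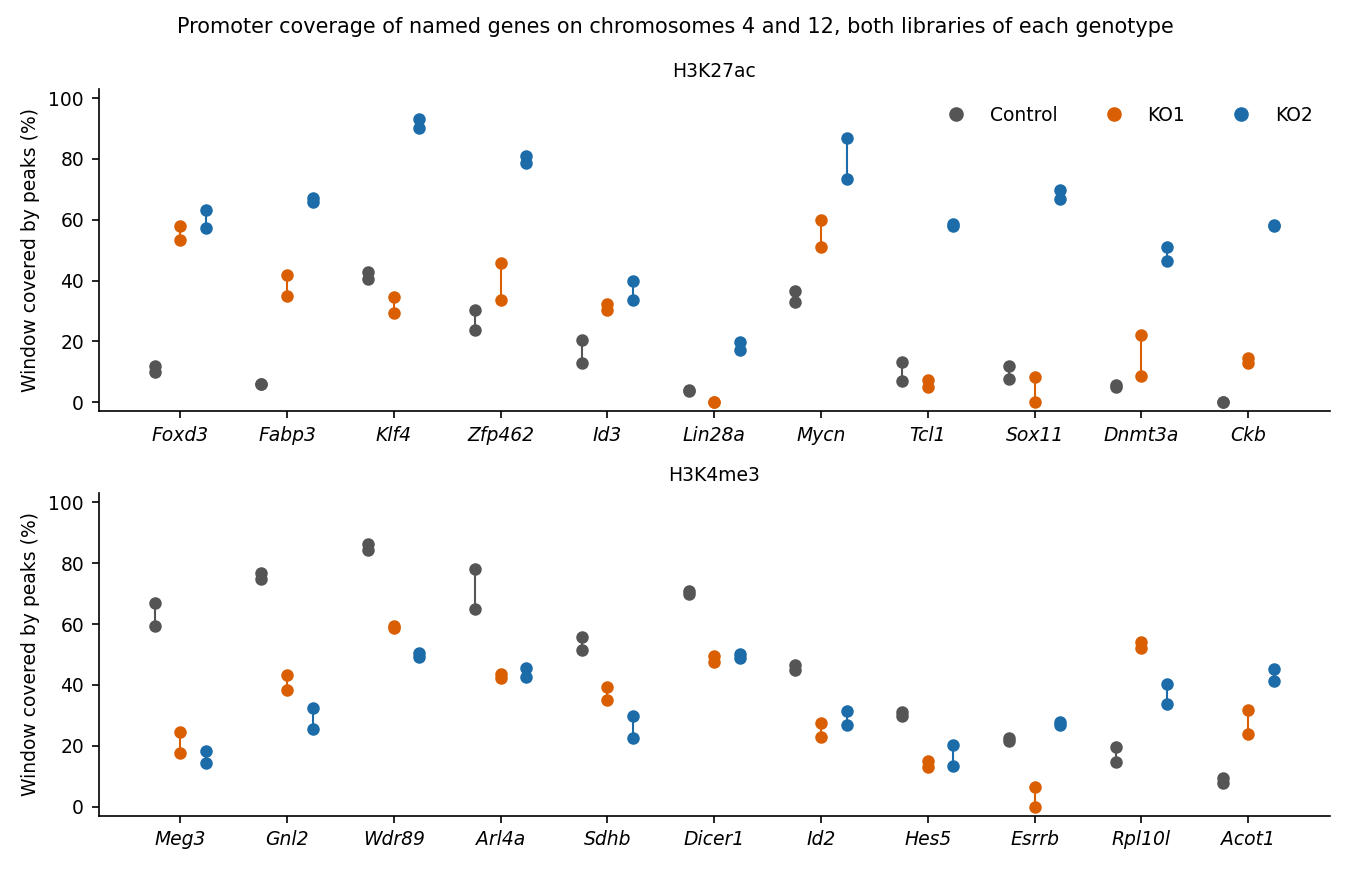
Percent of the promoter window, 2 kb to either side, covered by peaks (y axis) at named genes of chromosomes 4 and 12 (x axis). The 2 joined points of a colour are the libraries of a genotype. H3K27ac at Foxd3 is at 53.4% or more in all knockout libraries, at Klf4 it is high in KO2 alone, and H3K4me3 at Meg3 is at 24.4% or less in all knockout libraries.

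Markers of other cells were checked with the same windows. Of 12 fibroblast markers, which would show feeder cells, 9 had no H3K27ac in the Control libraries, 8 had none in KO1 and 7 or 8 had none in KO2, and Col1a1, Col1a2, Col3a1 and Lum were at 0% in every H3K27ac library. Their summed H3K27ac coverage was 93.5% to 133% in Control, 111% to 138% in KO1 and 232% to 258% in KO2. That of the 8 stem cell markers was 422% to 457%, 429% to 445% and 613% to 626%. Both H3K27ac sums were higher in KO2. H3K4me3 of the stem cell markers was 649% to 666% in Control, 622% to 631% in KO1 and 663% to 674% in KO2. Fibroblast markers carried H3K4me3 too, summing to 354% to 383% for Control, 319% to 330% for KO1 and 320% to 367% for KO2. Of these 12 markers, 4 or 5 lacked H3K4me3 for Control, 3 or 4 for KO1 and 3 or 5 for KO2. The part of other cells in the promoter differences was not tested.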

How the data were processed

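The reads were mapped to mm10, with CASAVA, Trimmomatic 0.38, Bowtie 1.2.2 and MACS2 named as tools, per the submitters' processing notes. The authors deposited 1 peak list per library, and no source used here gives their caller settings. The deposited lists give each peak's fold enrichment, a ratio over local background, its −log10 p and −log10 q by the authors, and a score. The deposited score repeats the −log10 q and was not used. Read depth is unknown. Every peak had a −log10 q of at least 2.00, no peaks of 1 list overlapped, and Wilson intervals cover counting error only.

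Shares are peaks on a chromosome over all autosomal peaks. Background was recovered from the fold and p by solving a Poisson tail, which was possible for 98.7% to 100% of peaks. Promoter coverage (21890 genes) and 2-Mb bins were fitted with limma 3.58.1 in R 4.3.3 (lmFit, eBayes with trend) over 6 libraries of a mark, with Benjamini-Hochberg adjustment over all genes or bins and a threshold of 0.05. Window centres came from the promoter table for 17495 genes. Where a gene had several starts there (2762 genes), the start with the most H3K4me3 was taken. Genes without a start in the table used a window inside the gene chosen by its H3K4me3. Both choices favour windows that have the mark. The model was tested on simulated data. Sequences, starts and gene names are from RefSeq tables of GRCm38.p6. The text names list members past the threshold, except a few genes that are not reported here, 9 genes regardless of their values, and for each mark, chromosome and direction the 4 genes that changed most; bins named in the text are among the 2 lowest and 2 highest for each mark, chromosome and line. The chromosomes, the members and the gene lists were chosen with earlier results of these data known. Alternatives included other peak sets, scalings, windows, bins and leaving out each replicate. A difference of 2 libraries against 2 cannot reach an exact permutation p under 0.333, so no such test was made.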

Additional observations from a re-analysis of the deposited data

Results flagged for a closer look

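The 2 knockout lines differed from each other on chromosomes 4 and 12 in several measures. The H3K27ac peak share of chromosome 12 lay below Control in both KO1 libraries and above it in both KO2 libraries, with a gap of 0.442 points between the means of the lines, and this difference was not tested. In limma, 51 of 135 H3K27ac bins were higher and 20 lower in KO2 than in KO1 (percent over all bins, 20.5 and 32.1). For H3K4me3, 41 of 137 bins were higher and 15 lower (over all bins, 21.3 and 26). H3K27ac promoter coverage was higher in KO2 than in KO1 at 715 of 898 genes, or 79.6%, among them 62 of the genes named by the rule. Over all genes 76.1% were higher, so most of this difference was not particular to the 2 chromosomes. The 62 include Lin28a, Mycl and Acot1, which reached the filter on mean H3K27ac coverage only through KO2, so their calls support nothing. H3K4me3 promoter coverage was higher in KO2 at 11 genes and lower at 3 of 1346 (percent over all genes, 0.496 and 0.185). Of the named genes 3 differed, Esrrb, Ppp2r5c and Syne3, and Syne3 reached the filter only through KO2.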

How the results depend on the processing

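The KO1 peak shares of both chromosomes were below Control in all 18 alternatives of each mark, at -0.26 to -0.12 for H3K27ac and -0.23 to -0.13 for H3K4me3 (log2). Shares that moved by more than the replicate spread were H3K27ac of chromosome 12 in KO2 (0.0845 by covered length, 0.0579 with an equal number of peaks, -0.0190 with peaks merged within 1 kb), and for H3K4me3 chromosome 4 in KO1 (-0.23 by covered length, -0.16 merged), chromosome 4 in KO2 (-0.17 by covered length, -0.10 with equal numbers and at a −log10 q of at least 5) and chromosome 12 in KO2 (-0.0244 by covered length). The 525 higher H3K27ac genes became 9 after quantile normalization, 264 with an equal number of peaks and 213 to 463 on leaving out a library, and the 0 lower became 7 after quantile normalization. The 4 higher H3K4me3 genes became 8 after quantile normalization, 2 with equal numbers, 0 in a window of 1 kb to either side and 0 to 2 without a library. The 123 lower became 62, 89, 0 and 0 to 84. No shares over all genes or bins are given for the alternatives, so their counts are not set against a background. In 5-Mb bins, and by number of peaks, H3K27ac bins in KO1 were 1 and 1 higher (0 with equal numbers; 1 to 4 without a library) and, by number, 17 lower (36 to 48 without a library); in KO2 17 and 22 higher (22 to 35) and 23 and 28 lower (30 to 50). H3K4me3 bins in KO1 were 4 and 3 higher (6 to 12) and 35 and 36 lower (46 to 63), and in KO2 12 and 7 higher (18 to 23) and 29 and 26 lower (36 to 51). With the replicate number as a block the genes were 520 higher and 0 lower for H3K27ac and 3 and 100 for H3K4me3, and the bins 4 and 52 (H3K27ac, KO1), 33 and 50 (KO2), 12 and 63 (H3K4me3, KO1), 25 and 50 (KO2). Across genotypes, the replicate deviations of same-numbered libraries of a mark correlated at -0.02 to 0.14, with 1 value over 0.1 (H3K4me3 bins, Control and KO2), so the numbers were not taken to pair them.

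After quantile normalization the H3K27ac difference was below 0 at Asxl2 (-0.0771), Cbll1 (-1.09), Cdc20 (-4.93), Eno1 (-4.05), Errfi1 (-4.02), Hdac1 (-1.26), Hif1a (-2.03), Lin28a (-2.96), Mthfd1 (-6.40), Mutyh (-0.49), Mycl (-0.99), Ndufb1 (-2.92), Park7 (-1.38), Plekhg3 (-5.86), Psma3 (-3.14), Psma6 (-2.34), Rpl22 (-2.65), Rps29 (-0.26), Rps7 (-4.36), Sdhb (-3.30), Ski (-0.50), Srsf10 (-2.85), Wdr89 (-2.20), Ythdf2 (-2.85) and Zbtb17 (-3.58). In that narrower window the H3K4me3 difference was above 0 at Smc6 (0.35) and Stmn1 (0.625). By number of peaks, KO1 was below Control in the bins at 98 to 100 Mb of chromosome 12 (H3K27ac, -0.0557) and 100 to 102 Mb of chromosome 4 (H3K4me3, -0.0769). The cause of these changes was not tested. Read depth is unknown, and a peak list holds no signal outside peaks.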
